A study of Rattus norvegicus with 8 samples.

Results

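Transcripts of the voltage-gated sodium channel subunits were followed in rat hippocampal cultures given a positive allosteric modulator (PAM) of the NMDA receptor or vehicle. The genes were chosen by symbol: Scn1a, Scn2a, Scn3a and Scn8a, which encode pore-forming alpha subunits, and Scn2b, Scn3b and Scn4b, which encode accessory beta subunits. Of these 7 genes, 6 were paired with an Ensembl identifier by the authors' table and are analysed here, out of 32623 annotated genes. Scn4b was not paired with an identifier there, so no counts could be assigned to it here. The 6 analysed genes were all among the 11740 genes that passed the low-count filter and were tested.

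The PAM group comprised 4 libraries and the vehicle group 4 libraries. Both groups came from wild type rats of strain SD, were labelled as brain, and were taken on day 18 in vitro (DIV 18). The sources used here do not give the modulator, its concentration or the duration of exposure. The labels number the libraries 1 to 4 in each group without stating whether they are separate cultures, so p-values measure only the spread between these libraries, which may be technical.

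A voltage-gated sodium channel consists of a single large alpha subunit, which holds the voltage sensors, the pore and the inactivation gate, and of beta subunits that modify its gating and surface density and act as adhesion molecules. These channels carry the upstroke of the action potential and are concentrated at the axon initial segment, where ankyrin G anchors them. In rodent forebrain, Scn2a (NaV1.2) and Scn8a (NaV1.6) are prominent in excitatory neurons, Scn1a (NaV1.1) in inhibitory interneurons, and Scn3a (NaV1.3) in the embryonic and early postnatal brain.

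Library totals ranged from 2960406 to 4389430 counts. Levels are given as CPM, the count divided by the scaled library total and expressed on a common scale for all libraries. A gene with no count in a library may have up to 0.64 to 1.08 CPM there (3 counts of the scaled total, counting error only). PAM 3 and PAM 4 stood apart: the slope of log2 expression was -0.0853 and -0.132 there per doubling of exonic length relative to the mean library, against 0.00524 to 0.0627 in the other 6 libraries. The subunits' fold changes, and other calls that depend on these libraries, are also given without them. Summed CPM of 11 pan-neuronal markers was 3395 to 4069 in PAM and 4439 to 5106 in vehicle libraries, and 5 of the 11 fell. Excitatory markers summed to 885 to 1010 CPM in PAM and 1376 to 1627 CPM in vehicle libraries, with 3 of 7 tested falling. Inhibitory markers summed to 1112 to 1675 CPM in PAM and 1597 to 1784 CPM in vehicle libraries, with 3 of 10 falling and 1 rising. Astrocyte markers summed to 9173 to 11199 CPM in PAM and 6296 to 6616 CPM in vehicle libraries, with 5 of 9 rising. Oligodendrocyte lineage markers summed to 1349 to 1747 CPM in PAM and 957 to 1069 CPM in vehicle libraries, with 5 of 10 rising and 1 falling. The 5 ependymal markers found summed to 130 to 204 CPM in PAM and 27.2 to 45.7 CPM in vehicle libraries, and all 5 rose. The 5 microglial markers found summed to 12.6 to 20.5 CPM in PAM and 17.3 to 52.3 CPM in vehicle libraries, with none of the 2 tested past the test. Kdr, the 1 endothelial marker found, was at 12 to 22.6 CPM in PAM and 5.64 to 11.3 CPM in vehicle libraries and rose. No marker found was at 0 in all libraries. The part of these shifts in the results below was not tested, and in bulk RNA fewer cells of a type and less RNA per cell cannot be told apart.

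Of the 6 sodium channel subunit transcripts, 4 fell in PAM cultures. These were Scn2a, Scn8a, Scn2b and Scn3b; none of the 6 rose, and Scn1a and Scn3a did not pass the test. The first 3 fell by more than 2-fold, as did 237 of all tested genes, and Scn3b fell by 29.0% in mean CPM. Among all tested genes 9.89% fell and 9.0% rose by the same criterion, edgeR's quasi-likelihood test with a Benjamini-Hochberg adjusted p under 0.05. All 6 log2 fold changes (PAM over vehicle) were below 0, as were 48.1% of those of all genes. The PAM libraries lay wholly below the vehicle libraries for 3 of the 6 and wholly above for none, against 12% and 10.3% of all tested genes. The median log2 fold change of the 6 was -1.16, against 0.02 over all tested genes. Of the 567 tested genes with an exonic length of at least that of Scn3a, 21.9% fell and the median log2 fold change was -0.17. With each library's trend with exonic length removed, the median over the 6 subunits was -1.03 and that of the 567 long genes -0.03.

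**Figure D1:**
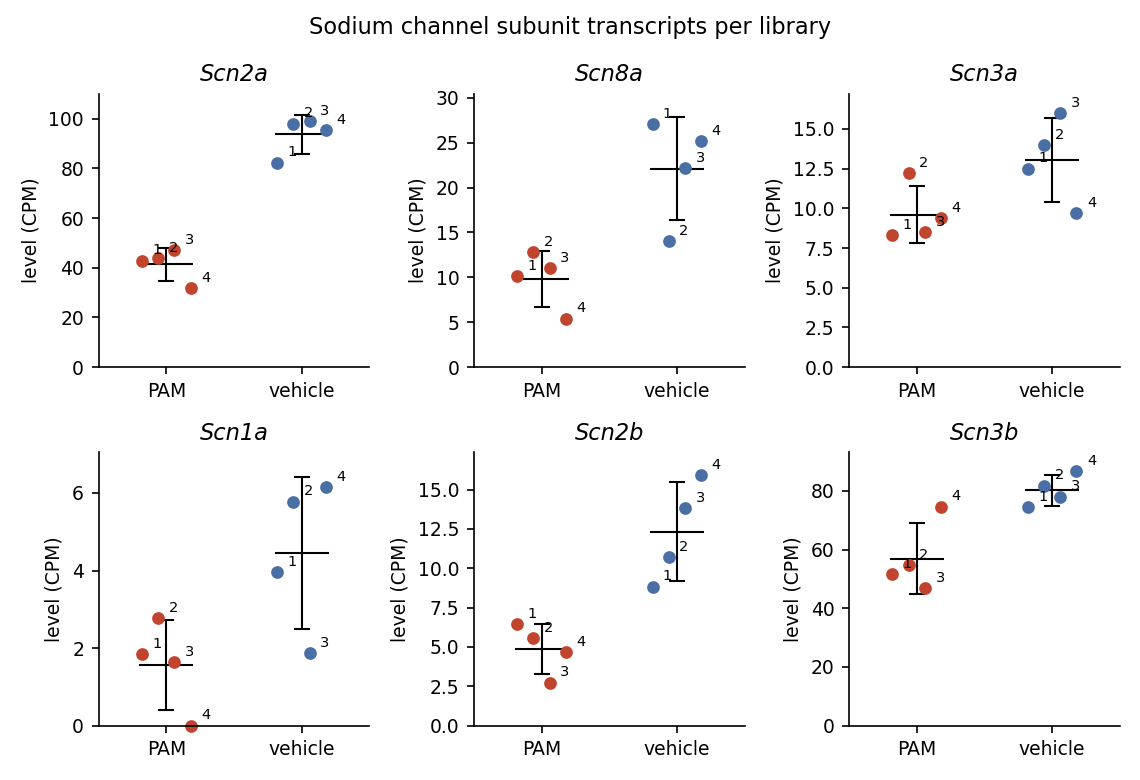
CPM of each subunit transcript (vertical axes, each starting at 0) in the 4 PAM and the 4 vehicle libraries, with library numbers beside the points and the mean ± SD as bars. The PAM libraries of Scn2a, Scn8a and Scn2b all lie below every vehicle library, while those of Scn1a, Scn3a and Scn3b overlap the vehicle libraries.

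Scn2a lies on chromosome 3 of Rnor_6.0, from 51687809 to 51822250 on the plus strand, and its 28 merged exons hold 8808 bases (ENSRNOG00000005018). It encodes NaV1.2, the main sodium channel of immature axons and later of the proximal initial segment and dendrites of excitatory neurons. Per length, it was the most abundant of the 4 pore-forming genes. Its CPM was 42.9, 43.9, 47.1 and 31.7 in PAM 1 to 4 and 82.3, 98.0, 98.9 and 95.4 in vehicle 1 to 4. The highest PAM library, PAM 3, was well below the lowest vehicle library, vehicle 1, and PAM 4 was the lowest of all. Mean CPM was 41.4 ± 6.7 in PAM and 93.7 ± 7.71 in vehicle libraries (SD, n = 4 each), which is 55.8% lower. The log2 fold change was -1.17 ± 0.14 (SE), with a 95% interval of -1.46 to -0.88 and an adjusted p of 1.64e-05 by edgeR's quasi-likelihood test. Without PAM 3 and PAM 4 it was -1.10 and passed.

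Scn8a is on chromosome 7, from 142575672 to 142684114 on the plus strand, with 27 merged exons and 6847 exonic bases (ENSRNOG00000005309). It encodes NaV1.6, the channel of the distal initial segment and the nodes of Ranvier in mature neurons, which supports repetitive firing. Its CPM was 10.1, 12.8, 11.0 and 5.41 in PAM 1 to 4 and 27.1, 14.0, 22.2 and 25.2 in vehicle 1 to 4. The groups did not overlap, but vehicle 2 was the low library of its group and came close to PAM 2. Means were 9.82 ± 3.15 CPM in PAM and 22.2 ± 5.78 CPM in vehicle libraries (SD, n = 4 each). The log2 fold change was -1.14 ± 0.28 (SE; 95% interval -1.72 to -0.56), with an adjusted p of 0.00694 (edgeR). It was -0.93 without PAM 3 and PAM 4 and remained past the test.

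Scn3a neighbours Scn2a on chromosome 3, from 51532627 to 51643140 on the minus strand, with 28 merged exons and 6823 exonic bases (ENSRNOG00000005007). It encodes NaV1.3, which is most abundant before and around birth. Scn3a had 8.3, 12.2, 8.49 and 9.37 CPM in PAM 1 to 4 and 12.5, 14.0, 16 and 9.71 CPM in vehicle 1 to 4. The groups overlapped, since vehicle 4 was the lowest vehicle library and lay below PAM 2. Means were 9.58 ± 1.78 CPM in PAM and 13.1 ± 2.64 CPM in vehicle libraries (SD, n = 4 each). The log2 fold change was -0.44 ± 0.27 (SE), its 95% interval of -1.01 to 0.13 included 0, and the adjusted p was 0.28 (edgeR). Without PAM 3 and PAM 4 it was -0.34 and did not pass.

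Scn1a, also on chromosome 3, from 52381975 to 52510507 on the minus strand (28 merged exons, 11887 exonic bases, ENSRNOG00000053122), encodes NaV1.1, on which fast-spiking interneurons depend. It was the rarest of the 6. Its counts were 8, 13, 6 and 0 in PAM 1 to 4 and 13, 21, 6 and 19 in vehicle 1 to 4, or 1.84, 2.77, 1.64 and 0 CPM in PAM and 3.96, 5.78, 1.88 and 6.15 CPM in vehicle libraries. PAM 4 had no count, which allows up to 1.08 CPM, and vehicle 3 was as low as the PAM libraries, so the groups overlapped. The log2 fold change was -1.40 ± 0.60 (SE; 95% interval -2.65 to -0.14). The p was 0.0307 before and 0.114 after Benjamini-Hochberg adjustment (edgeR), so the difference did not pass. Without PAM 3 and PAM 4 the log2 fold change was -0.92, with an adjusted p of 0.294 (edgeR). The low-count filter uses library totals before scaling, unlike the CPM printed here. On those totals Scn1a reached the filter's 2.88 CPM in 1 PAM and 3 vehicle libraries. It was not tested once vehicle 2 was left out.

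Scn2b is a short gene on chromosome 8, from 49418965 to 49427689 on the plus strand, with 4 merged exons and 1037 exonic bases (ENSRNOG00000016221). Its product, beta 2, is joined to the alpha subunit by a disulfide bond and is cleaved by the protease BACE1. Its CPM was 6.45, 5.54, 2.74 and 4.69 in PAM 1 to 4 and 8.84, 10.7, 13.8 and 15.9 in vehicle 1 to 4. Every PAM library was below every vehicle library, with PAM 3 the lowest. Means were 4.86 ± 1.59 CPM in PAM and 12.3 ± 3.12 CPM in vehicle libraries (SD, n = 4 each), from 10 to 28 counts in PAM and 29 to 49 counts in vehicle libraries. The log2 fold change was -1.32 ± 0.34 (SE; 95% interval -2.03 to -0.61), with an adjusted p of 0.00997 (edgeR). Without vehicle 4 it was -1.18 with an adjusted p of 0.0503, just outside the threshold, and without PAM 3 and PAM 4 it was -1.02 and passed.

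Scn3b is on chromosome 8, from 44136496 to 44159010 on the plus strand, with 7 merged exons and 3886 exonic bases (ENSRNOG00000057221). It encodes beta 3, which associates with the alpha subunit without a covalent bond. Its CPM was 51.6, 54.8, 46.8 and 74.6 in PAM 1 to 4 and 74.4, 81.8, 78.0 and 86.7 in vehicle 1 to 4. PAM 4 was the high library of its group and lay just above vehicle 1, so the groups overlapped. Means were 57.0 ± 12.2 CPM in PAM and 80.2 ± 5.28 CPM in vehicle libraries (SD, n = 4 each). The log2 fold change was -0.50 ± 0.14 (SE; 95% interval -0.80 to -0.20), with an adjusted p of 0.0204 (edgeR). This call was lost without PAM 1, PAM 3, vehicle 2 or vehicle 4, with adjusted p-values of 0.0638, 0.0687, 0.0629 and 0.0735 (edgeR). It was also lost with the length trend removed, at a log2 fold change of -0.44 and an adjusted p of 0.0533, and in a test against a 1.2-fold change (adjusted p = 0.115, edgeR). Without PAM 3 and PAM 4 the log2 fold change was -0.58 and passed. PAM 4 thus took a different rank by gene: it was the lowest PAM library for Scn2a, Scn8a and Scn1a, and the highest for Scn3b.

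**Figure D2:**
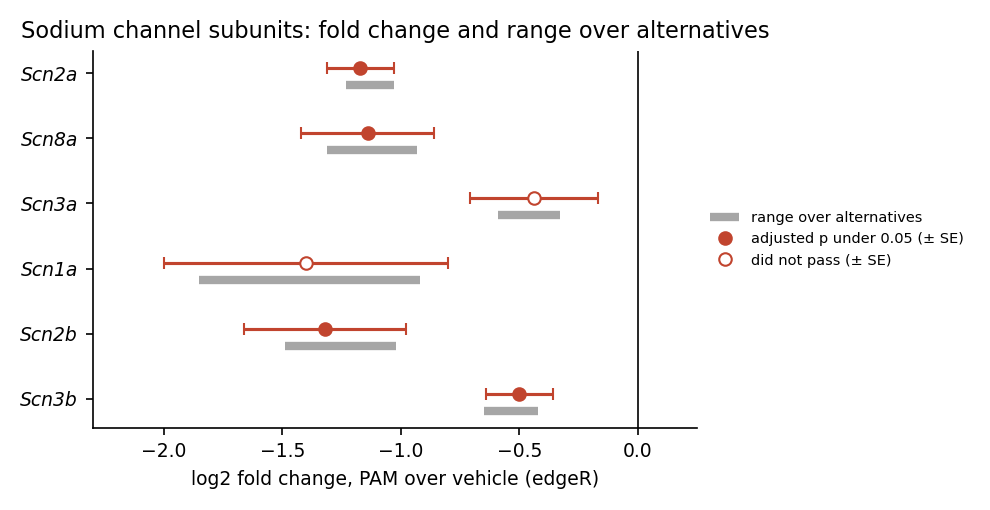
Log2 fold change, PAM over vehicle, of each subunit (horizontal axis), with bars of 1 SE and filled points for genes past the test. Grey bars give the range of the log2 fold change over the processing alternatives, all of it below 0; Scn2a and Scn3b have the smallest SE and Scn1a the largest.

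Across 19 alternative settings, which changed the tool, the scaling, the filter, the block or the libraries, Scn2a and Scn8a passed in all 19. Their adjusted p-values reached at most 0.000253 for Scn2a and 0.0326 for Scn8a. Scn2b passed in 18 of 19 and Scn3b in 13 of 19. Scn3a passed in none of 19, with adjusted p-values of 0.184 to 0.51, and Scn1a in none of the 18 in which it was tested, at 0.0764 to 0.294. In the authors' deposited table the log2 fold changes were -1.17 for Scn2a, -1.15 for Scn8a, -1.33 for Scn2b and -0.5 for Scn3b. The adjusted p-values in the authors' deposited table were 2.71e-12 for Scn2a, 0.00112 for Scn8a, 0.00218 for Scn2b and 0.0134 for Scn3b. Scn1a and Scn3a had adjusted p-values of 0.0937 and 0.302 in the authors' deposited table.

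The promoter sequences of the 3 genes that fell by more than 2-fold are shown. In base composition Scn8a differs from Scn2a and Scn2b, which are close to each other. RefSeq's promoter table for build GRCr8, which covers 250 bases before to 50 bases after a gene's start, held 5 of the 7 genes (Scn2a, Scn3a, Scn8a, Scn2b and Scn4b). The sequences run 5′ to 3′ along the gene's strand, here plus in all 3 cases, and capitals mark CG dinucleotides. They lie at chr3:70710706-70711005 for Scn2a, chr7:133860977-133861276 for Scn8a and chr8:54322133-54322432 for Scn2b.
Scn2a: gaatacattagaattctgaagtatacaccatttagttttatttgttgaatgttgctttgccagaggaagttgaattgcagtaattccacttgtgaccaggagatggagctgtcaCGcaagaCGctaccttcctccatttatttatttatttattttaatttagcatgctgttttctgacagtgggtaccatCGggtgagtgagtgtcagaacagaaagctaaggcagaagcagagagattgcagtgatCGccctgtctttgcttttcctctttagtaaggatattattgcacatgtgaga
Scn8a: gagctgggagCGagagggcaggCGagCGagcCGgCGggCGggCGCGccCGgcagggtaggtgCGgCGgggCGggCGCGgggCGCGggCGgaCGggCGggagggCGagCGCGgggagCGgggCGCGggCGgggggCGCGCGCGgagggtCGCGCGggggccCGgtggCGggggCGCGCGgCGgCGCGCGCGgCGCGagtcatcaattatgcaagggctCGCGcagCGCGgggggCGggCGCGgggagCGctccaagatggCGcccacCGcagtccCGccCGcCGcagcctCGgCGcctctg
Scn2b: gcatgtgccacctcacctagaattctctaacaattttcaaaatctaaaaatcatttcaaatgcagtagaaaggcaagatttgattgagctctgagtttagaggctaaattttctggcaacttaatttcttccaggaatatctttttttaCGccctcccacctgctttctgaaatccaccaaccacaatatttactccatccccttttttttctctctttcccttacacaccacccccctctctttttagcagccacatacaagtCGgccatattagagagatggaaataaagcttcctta
The Scn8a window was 84.7% G or C with 60 CG dinucleotides, and 99.9% of the 33469 promoters in the table had a lower G and C content. The Scn2a and Scn2b windows were 39.3% and 39.0% G or C with 4 and 2 CG dinucleotides, near the 10.6 and 10 percentiles, against a median of 51.7%. The window of Scn3a, whose level did not pass the test, was 43.3% G or C with 7 CG dinucleotides. The motif GGCGGG, searched on both strands with overlaps allowed, had 10 matches in the Scn8a window and none in those of Scn2a, Scn3a and Scn2b. It occurs in 32.0% of all promoters in the table. The motif TATAAA (14.2% of all promoters) matched on neither strand of any of the 5 windows. The same held for CCAAT (37.5% of all promoters), for TGACG (21.2%) and for CATCTG (16.6%). These matches describe letters in a window, not binding.

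Levels were compared between genes per length, as CPM divided by the exonic length in kilobases (RPKM) computed from the deposited lengths. In PAM libraries Scn3b averaged 14.7, Scn2a 4.7, Scn2b 4.68, Scn8a 1.43, Scn3a 1.4 and Scn1a 0.132 RPKM. In vehicle libraries Scn3b averaged 20.6, Scn2b 11.9, Scn2a 10.6, Scn8a 3.24, Scn3a 1.91 and Scn1a 0.374 RPKM. Scn3b was thus the most abundant of the 6 transcripts and Scn1a the rarest in both groups. Scn2a and Scn2b were neighbours in the order whose means were within 1 SD of each other, and in PAM libraries so were Scn8a and Scn3a. In the ranking of all tested genes by RPKM, Scn2a lay at percentile 27.6 in PAM and 48.5 in vehicle libraries, and Scn2b at 27.5 in PAM and 51.8 in vehicle libraries. Scn3b moved less, at percentile 57.0 in PAM and 66.0 in vehicle libraries.

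The summed level of the 4 pore-forming transcripts was 7.72, 8.87, 8.33 and 5.77 RPKM in PAM 1 to 4 and 15.5, 15.7, 17.0 and 16.5 RPKM in vehicle 1 to 4. All PAM libraries were below all vehicle libraries, and the mean of 7.67 ± 1.35 RPKM in PAM was 52.5% lower than the 16.2 ± 0.689 RPKM in vehicle libraries (SD, n = 4 each). Scn2a made up 61.5 ± 3.58% of the sum in PAM and 65.8 ± 4.25% in vehicle libraries, and Scn8a 18.3 ± 3.18% in PAM and 20 ± 5.36% in vehicle libraries. Both of these shares overlapped between groups. Scn3a took 15.8%, 20.1%, 14.9% and 23.8% of the sum in PAM 1 to 4, and 11.8%, 13.1%, 13.8% and 8.64% in vehicle 1 to 4. Its share was higher in every PAM library than in any vehicle library. The level of Scn3a itself was not higher, at a mean of 1.4 RPKM in PAM and 1.91 RPKM in vehicle libraries. Its larger share thus came with a lower sum. These shares are descriptions without a test, and they depend on the annotated exonic lengths.

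**Figure D3:**
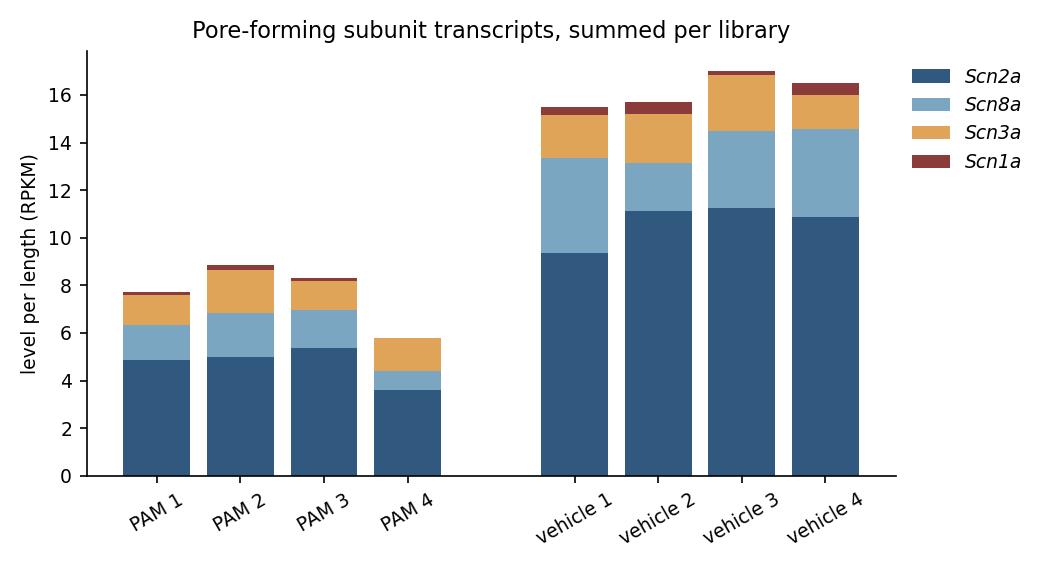
RPKM of the 4 pore-forming subunit transcripts stacked for each library (vertical axis from 0), PAM libraries on the left and vehicle libraries on the right. The stacks of PAM libraries reach 5.77 to 8.87 RPKM and those of vehicle libraries 15.5 to 17.0 RPKM.

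Ratios between subunits within a library, which do not depend on library scaling, were compared for 7 pairs with an exact two-sided permutation test of the library labels (70 arrangements). The smallest p this test can give is 0.0286. The log2 ratio of Scn2a to Scn3a counts was 2.35, 1.84, 2.45 and 1.74 in PAM 1 to 4 and 2.7, 2.79, 2.62 and 3.28 in vehicle 1 to 4. It was lower in all 4 PAM libraries, by 0.75 on average, with an exact p of 0.0286 and an adjusted p over the 7 pairs of 0.2. The log2 ratio of Scn2b to Scn3b was -3.56 ± 0.51 in PAM and -2.72 ± 0.31 in vehicle libraries (SD, n = 4 each; exact p = 0.0571, adjusted p = 0.2), with PAM 1 above the lowest vehicle library. The ratio of Scn2a to Scn8a had the same mean, 2.11 ± 0.31 in PAM and 2.11 ± 0.51 in vehicle libraries (SD, n = 4 each; exact p = 1.0). The ratio of Scn3a to Scn8a differed by 0.75 (exact p = 0.143, adjusted p = 0.333). The 3 ratios with Scn1a had exact p-values of 0.229 to 0.514. No ratio passed after adjustment. A single pair at the smallest exact p can reach an adjusted p of only 0.2 over 7 pairs, so with 4 libraries a group this result does not show that the subunits changed equally.

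Because neuronal markers were also lower, each subunit was expressed per 1000 counts of the 11 pan-neuronal markers in the same library. The marker sum averaged 3791 ± 318 CPM in PAM and 4809 ± 303 CPM in vehicle libraries (SD, n = 4 each), a log2 difference of -0.34. Abundant markers weigh most in this sum. The median log2 fold change of the 11 markers was -0.55, with a range of -0.97 to 0.02. The values below depend on this weighting, and other weightings were not tested. Scn2a stood at 12.6, 10.9, 12.8 and 7.8 per 1000 marker counts in PAM 1 to 4 and at 18.5, 20.9, 19.8 and 18.7 in vehicle 1 to 4. The groups did not overlap, and the PAM mean was 43.3% lower. Scn2b stood at 1.9, 1.38, 0.745 and 1.15 in PAM 1 to 4 and at 1.99, 2.29, 2.76 and 3.1 in vehicle 1 to 4, a mean 49.0% lower, also without overlap. Scn8a was 43.4% lower in the mean, at 2.62 ± 0.864 in PAM and 4.62 ± 1.29 in vehicle libraries (SD, n = 4 each), and overlapped through vehicle 2. Scn3b stood at 15.2, 13.6, 12.7 and 18.3 in PAM 1 to 4 and at 16.8, 17.4, 15.6 and 17.0 in vehicle 1 to 4. PAM 1, PAM 2 and PAM 3 lay below every vehicle library, and PAM 4 lay above every one. Scn3b means were 15.0 ± 2.47 in PAM and 16.7 ± 0.781 in vehicle libraries. Scn3a, at 2.52 ± 0.339 in PAM and 2.73 ± 0.571 in vehicle libraries, differed by less than 1 SD of the PAM libraries. Scn1a stood at 0.42 ± 0.297 in PAM and 0.926 ± 0.398 in vehicle libraries, with overlap. In all, 2 of the 6 subunits were lower in every PAM library on this scale, as were 3.1% of all tested genes.

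**Figure D4:**
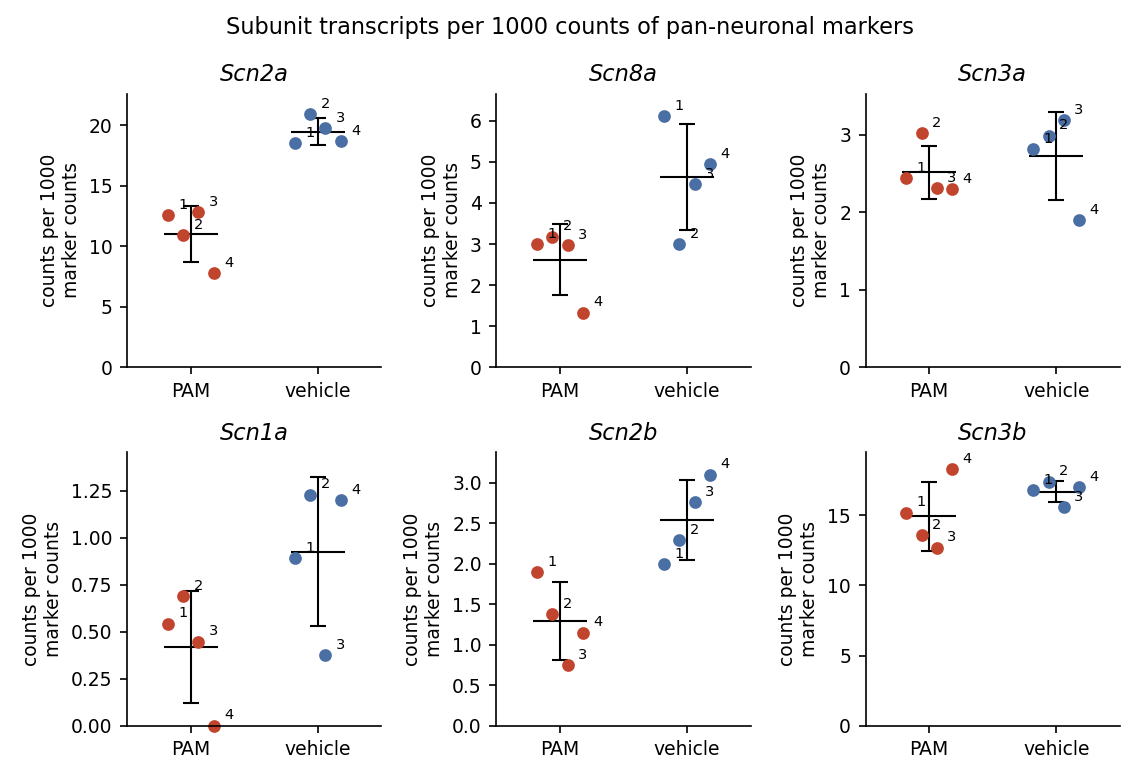
Counts of each subunit per 1000 counts of 11 pan-neuronal markers (vertical axes from 0) in the PAM and vehicle libraries, with library numbers and mean ± SD. Scn2a and Scn2b remain separated between groups, whereas the points of Scn8a, Scn3a, Scn1a and Scn3b overlap.

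Of the other sodium channel subunits, Scn7a, which encodes a sodium channel that is not gated by voltage in the usual way, had 16.6 ± 10.1 CPM in PAM and 10 ± 5.44 CPM in vehicle libraries (SD, n = 4 each; adjusted p = 0.247, edgeR). Without PAM 4 its log2 fold change was 1.03 and passed, with an adjusted p of 0.0279, and without PAM 3 and PAM 4 it was 1.33 with an adjusted p of 0.000507 (edgeR). Scn9a was too low to be tested.

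The other genes of the channel's surroundings were taken from lists of known partners. Over 8 lists, 59 genes were tested, 13 fell, 2 rose, and the median log2 fold change was -0.22. Among all tested genes 9.89% fell, 9.0% rose, and the median was 0.02. Of 11 tested genes of the list for the axon initial segment and membrane anchoring, 5 fell and none rose, with a median of -0.42. After removal of the length trend, 4 of the 11 fell, not all of them among these 5, and the median was -0.28. L1cam, an adhesion molecule that binds ankyrin, had 79.4 ± 8.82 CPM in PAM and 138 ± 7.83 CPM in vehicle libraries, a log2 fold change of -0.79 ± 0.11 (SE; adjusted p = 9.04e-05, edgeR). Trim46, which bundles microtubules in the proximal axon, had 37.2 ± 7.05 CPM in PAM and 59.0 ± 3.79 CPM in vehicle libraries (log2 fold change -0.66 ± 0.15, SE). Ank3, the gene of ankyrin G, had 113 ± 9.94 CPM in PAM and 151 ± 6.6 CPM in vehicle libraries (log2 fold change -0.42 ± 0.11, SE). Sptbn4, the gene of beta IV spectrin, had 117 ± 13.0 CPM in PAM and 160 ± 12.4 CPM in vehicle libraries (log2 fold change -0.45 ± 0.11, SE). The calls of Ank3 and Sptbn4 were lost with the length trend removed, at adjusted p-values of 0.163 and 0.149 (edgeR). Ank2, named after its values were seen, fell by 0.64 on the log2 scale, and its call was lost without PAM 3, vehicle 1, vehicle 3 or vehicle 4, at adjusted p-values of 0.0502 to 0.0763 (edgeR). Without PAM 3 and PAM 4 its log2 fold change was -0.39 and passed.

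Of the 3 tested fibroblast growth factor homologous factors, which bind the cytoplasmic tail of the alpha subunits, Fgf11 and Fgf13 fell. Fgf11 had 78.3 ± 8.51 CPM in PAM and 140 ± 7.31 CPM in vehicle libraries (log2 fold change -0.84 ± 0.11, SE; adjusted p = 5.08e-05, edgeR). Fgf13 had 160 ± 22.2 CPM in PAM and 207 ± 28.6 CPM in vehicle libraries, and its call (adjusted p = 0.0448, edgeR) held in 8 of 19 alternatives. It was lost without PAM 1, PAM 3, PAM 4, vehicle 2, vehicle 3 or vehicle 4, at adjusted p-values of 0.0631 to 0.159 (edgeR). Without both PAM 3 and PAM 4 its log2 fold change was -0.27, with an adjusted p of 0.0933 (edgeR). Of 14 tested channel modulators, 1 fell: Prrt2, whose product is a known negative modulator of neuronal sodium channels, had 24.5 ± 8.21 CPM in PAM and 54.8 ± 4.67 CPM in vehicle libraries. Its log2 fold change of -1.14 ± 0.20 (SE) was equal to that of Scn8a to 2 decimals. None of 8 tested genes for the proteases that cleave beta subunits passed, and their median was -0.04. None of the 4 tested genes of the sodium leak channel passed, with a median of -0.53.

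Of 8 tested sodium pump genes, 2 fell and 2 rose. Atp1b1, which encodes a beta subunit of the pump, fell, with 980 ± 39.9 CPM in PAM and 1406 ± 121 CPM in vehicle libraries (SD, n = 4 each; log2 fold change -0.52 ± 0.10, SE). Atp1b2, which encodes another beta subunit, rose, with 964 ± 150 CPM in PAM and 740 ± 41.0 CPM in vehicle libraries (SD, n = 4 each; log2 fold change 0.38 ± 0.11, SE). In the same libraries the pan-neuronal marker sum was lower and the astrocyte marker sum higher in PAM, and the part of this in the pump genes was not tested. The call of Atp1b2 held in 14 of 19 alternatives, and was lost without PAM 1, vehicle 1, vehicle 2 or vehicle 3 at adjusted p-values of 0.0556 to 0.0893 (edgeR). Among regulators of sodium channel transcripts, 3 of 9 tested fell: the splicing factors Rbfox1 (log2 fold change -0.86 ± 0.12, SE) and Rbfox3 (-0.82 ± 0.17, SE), and the RNA-binding protein gene Celf4 (-0.69 ± 0.21, SE). Rbfox3 is also among the pan-neuronal markers, and the call of Celf4 held in 12 of 19 alternatives. It was lost without PAM 1, PAM 3, vehicle 2, vehicle 3 or vehicle 4, at adjusted p-values of 0.0536 to 0.122 (edgeR). Without both PAM 3 and PAM 4 its log2 fold change was -0.47, with an adjusted p of 0.0912 (edgeR).

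**Figure D5:**
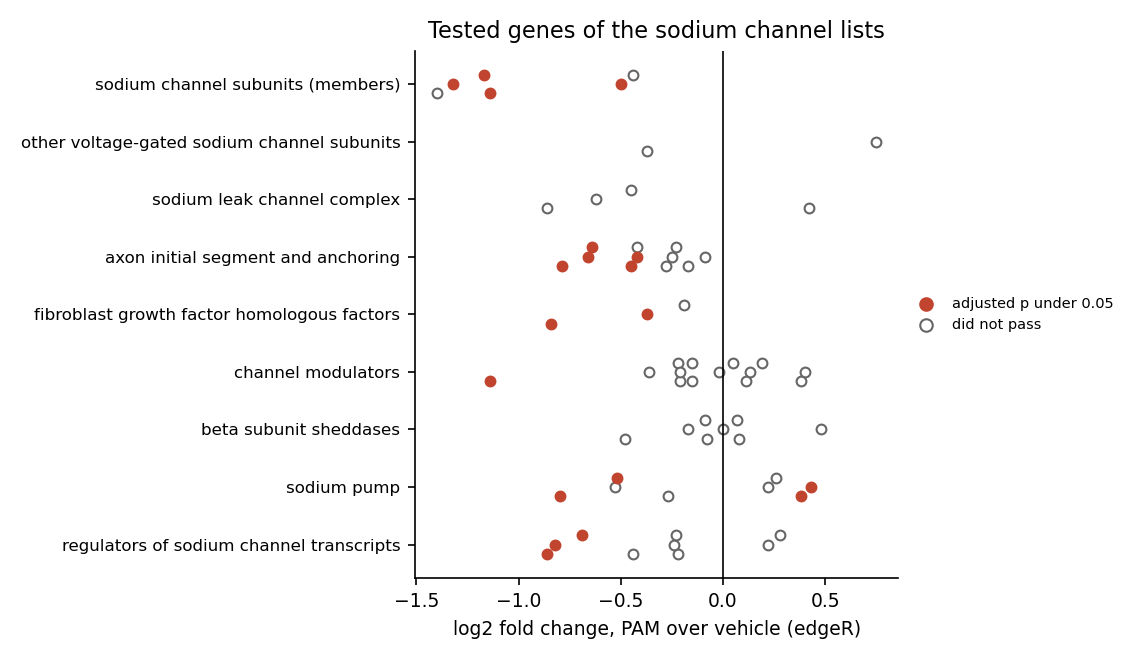
Log2 fold change, PAM over vehicle, of every tested gene in the sodium channel lists (horizontal axis), 1 row per list, filled where the adjusted p was under 0.05. The subunits in the top row reach -1.40. Genes of the axon initial segment and anchoring list lie between -0.79 and -0.09, and those of the pump on both sides of 0.

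The genes whose centred log2 profile over the 8 libraries was nearest to each subunit were found among up to 8862 genes with a mean of at least 10 CPM. Nearest to Scn2a were Wipf3, Klf16 and Mpp3, with root mean square differences of 0.09, 0.10 and 0.10. Nearest to Scn8a were Apba1, Rims1 and Syt7 (0.17, 0.17 and 0.18). For Scn2b they were Ppm1e, Rassf5 and Cdk5r1 (0.25, 0.28 and 0.30), and for Scn3b they were Grip2, Ppp3cc and Prkaca (0.09, 0.09 and 0.10). For Scn3a they were Slc30a9, Rpap2 and RGD1310553 (0.13, 0.14 and 0.14), and for Scn1a Rimbp2, Kansl1 and Slc6a11 (0.22, 0.34 and 0.37). Between subunits the nearest pairs were Scn3a with Scn3b, at 0.30, and Scn2a with Scn8a, at 0.35.

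Neighbouring genes were examined last. Within 500 kb of the 6 genes on Rnor_6.0, 105 other genes were annotated, of which 31 were tested, 8 fell and 1 rose. Among all tested genes 9.89% fell and 9.0% rose. Whether neighbours differ from other genes was not tested. Scn2a and Scn3a are 44669 bases apart. The tested neighbours of Scn1a, Scn2a and Scn3a on chromosome 3 were Csrnp3, Galnt3, Ttc21b, Scn7a, Cobll1, Grb14 and 1 gene without a symbol, of which Grb14 fell (log2 fold change -0.81). Near Scn8a, Acvr1b, Grasp and Nr4a1 fell, with log2 fold changes of -0.75, -1.14 and -0.49. Letmd1, Csrnp2, Tfcp2, Pou6f1, Dazap2, Smagp, Slc4a8, LOC103692984 and Atg101 did not pass there. Near Scn2b, Tmem25, Kmt2a and Dscaml1 fell, with log2 fold changes of -0.57, -1.25 and -0.80, and Ift46 rose. Ddx6, Phldb1, Arcn1, Atp5mg, Ube4a and Fxyd6 did not pass there. Near Scn3b, Gramd1b, 6357 bases away, fell (log2 fold change -0.62), and Zfp202 did not pass. The calls were lost in 11 of 19 alternatives for Ift46, 8 for Nr4a1, 6 for Tmem25, 3 for Gramd1b and 2 for Kmt2a, and 1 left-out library was enough in each case. No subunit gene shared exon bases with another annotated gene.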

How the data were processed

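Polyadenylated RNA was sequenced from 4 PAM and 4 vehicle libraries. The authors deposited whole-number gene counts with exon coordinates and lengths, per the file headers. The build Rnor_6.0 and the tools STAR, featureCounts and DESeq2 are listed without roles, per the submitters' processing notes; the sources used here give neither the strand setting nor the handling of reads with several hits. The authors also deposited a comparison table with normalized group means (signal), p-values before and after adjustment, and log2 fold changes, as its header states; it supplied the symbols.

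Counts were tested in R 4.3.3 with edgeR 4.0.16 (filterByExpr, TMM, robust quasi-likelihood F test, group as the only term, Benjamini-Hochberg adjustment over 11740 genes, threshold 0.05). The SE is the log2 fold change over the square root of F. CPM uses TMM-scaled totals. The common biological coefficient of variation was 17.7%. Libraries within a group differed beyond counting noise. The chi-square per degree of freedom was 2.77 to 4.11 for pairs of vehicle libraries and 4.36 to 14.8 for pairs of PAM libraries. Ratios used counts plus 0.5. With Scn4b lacking an identifier, 7 pairs were tested instead of the planned set, which included it. Alternatives used DESeq2 1.42.0, limma 3.58.1 (voom), other scalings, filters, a 1.2-fold threshold, the replicate block, removal of the length trend (loess, span 0.5) and left-out libraries. The fitting script was tested on simulated data.

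The subunits and all gene lists were chosen with earlier results of these data known. Named were the subunits, up to 4 genes per list with the smallest p among those past the test, the 3 nearest profiles per subunit, and tested neighbours within 500 kb. Scn7a was also described, after its values were seen. Some genes selected by this rule are not reported here. Promoters came from RefSeq (GRCr8) and were not placed on Rnor_6.0.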

Additional observations from a re-analysis of the deposited data

Results flagged for a closer look

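The Fgf13 level in PAM 2 stood apart from the other PAM libraries: it was 193 CPM, against 147 to 152 CPM in the other 3. The gap to the nearest library took 0.888 of the range of the group, above Dixon's 95% critical value for 4 samples. This was 1 of 42 groups (21 genes in PAM and in vehicle libraries), and chance alone flags about 1 in 20. None of the 6 sodium channel subunits was flagged.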

How the results depend on the processing

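The direction of all 6 subunits held under every alternative in which they were tested. Leaving out libraries gave log2 fold changes of -1.49 to -1.02 for Scn2b, the last without PAM 3 and PAM 4, and its call was lost without vehicle 4 (-1.18); with 1 library left out the range was -1.49 to -1.12. The range was -0.65 to -0.42 for Scn3b. Under the 1.2-fold test Scn3b had a log2 fold change of -0.50 and an adjusted p of 0.115, and with the length trend removed it had -0.44 (edgeR). Subunits that fell numbered 2 to 4 with 1 library left out, 2 of them without vehicle 4. The count of listed partner genes that fell was 8 under the 1.2-fold test against 13. The count that rose was 4 with upper-quartile scaling, 4 with no filter, 0 under the 1.2-fold test, 5 without PAM 3 and PAM 4, and 1 to 4 with 1 library left out, against 2. The log2 ratio of Scn1a to Scn2a differed by -0.67 and ranged from -1.08 to 0.1 with 1 library left out; it reversed to 0.1 without PAM 4, where Scn1a had no count, and was 0.28 without PAM 3 and PAM 4. The replicate number as a block left 4 subunits past the test; deviations of same-numbered libraries correlated at 0.0516, -0.0454, 0.0676 and -0.0595, so the numbers were not taken to pair them, and 2 of 4 PAM libraries correlated best with their own number. Depth limits Scn1a most. Beyond cases named here, the cause of a changed value was not tested.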
